A study of Mus musculus with 12 samples.

Results

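The 10 genes described here encode chemokines: Ccl2, Ccl5, Ccl7, Ccl8, Ccl20, Cxcl1, Cxcl2, Cxcl5, Cxcl10 and Cxcl15. They were taken by name, and every array probe whose RefSeq accession maps to 1 of them was read, which gave 12 probes of the 41174 on the array. They are 10 of 32665 features (named genes, or accessions with no gene name), and 9 of the 10 were among the 18430 features bright enough to be tested. The test required a spot flagged well above background in every sample of at least 1 group. Cxcl2 was not well above background on any of the 12 arrays.

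Expression was measured on single-colour Agilent arrays in mouse embryonic fibroblasts lacking Atm (Atm-KO) or carrying it (Atm-WT). Irradiated Atm-KO, nonirradiated Atm-KO, irradiated Atm-WT and nonirradiated Atm-WT cells gave 3 samples each, numbered 1 to 3 in the labels. Irradiated cells received 4.32 Gy, and RNA was taken at 72 h. The form of the Atm mutation, the dose rate and whether the lines were clonal are not stated in the sources used here. Nor do the labels say that the samples of a group came from separate cultures or embryos, and the p-values then reflect the spread among these 12 samples alone, part of which may be technical.

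Chemokines are small secreted proteins that draw leukocytes along a gradient by acting on G protein-coupled receptors. CC ligands act mainly on monocytes, lymphocytes and dendritic cells, while many CXC ligands act on neutrophils and others on activated T cells. Fibroblasts with persistent DNA damage are known to secrete several of them, and their genes are commonly switched on through NF-kB and, for some, through interferon signalling. Atm is the protein kinase activated at broken DNA ends.

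All levels below are log2 processed signal minus the 75th percentile of the same array, so 0 is the brightness that 75% of spots fall below. A level compares samples for 1 probe and does not rank genes against each other. The 75th percentile ran from 379 to 757 signal units, 55.3% to 64.5% of probes were well above background, and 0 spots were saturated. Of the 2 Atm probes, 1 was well above background on 0 of 6 Atm-KO and 4 of 6 Atm-WT arrays, and the other on 1 of 6 Atm-KO and 5 of 6 Atm-WT arrays. The sources used here do not say whether they lie in the deleted part of the gene. All 12 fibroblast markers were well above background on every array. The arrays lay on 3 slides that held Atm-WT samples 1 and 2, Atm-WT sample 3 with Atm-KO sample 1, and Atm-KO samples 2 and 3. Irradiated and nonirradiated samples of 1 number shared a slide, and irradiated samples were always at positions 2 and 4, so the position on a slide cannot be told apart from irradiation.

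The tested members differed in pattern. Cxcl10 and Ccl5 were lowest in nonirradiated Atm-WT cells and higher with irradiation, without Atm, or with both. Ccl2, Ccl7 and Ccl8 were higher in the irradiated sample of every pair of samples, in both genotypes, and did not pass between genotypes. Every pair was also higher for Cxcl10, Ccl5, Ccl20 and Cxcl1, and the share of all features with this trait was not counted. Every Atm-KO sample had more Ccl20 than every Atm-WT sample of the same treatment, and its irradiation differences passed in neither genotype. Cxcl1, Cxcl5 and Cxcl15 differed more between sample numbers than between treatments.

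**Figure D1:**
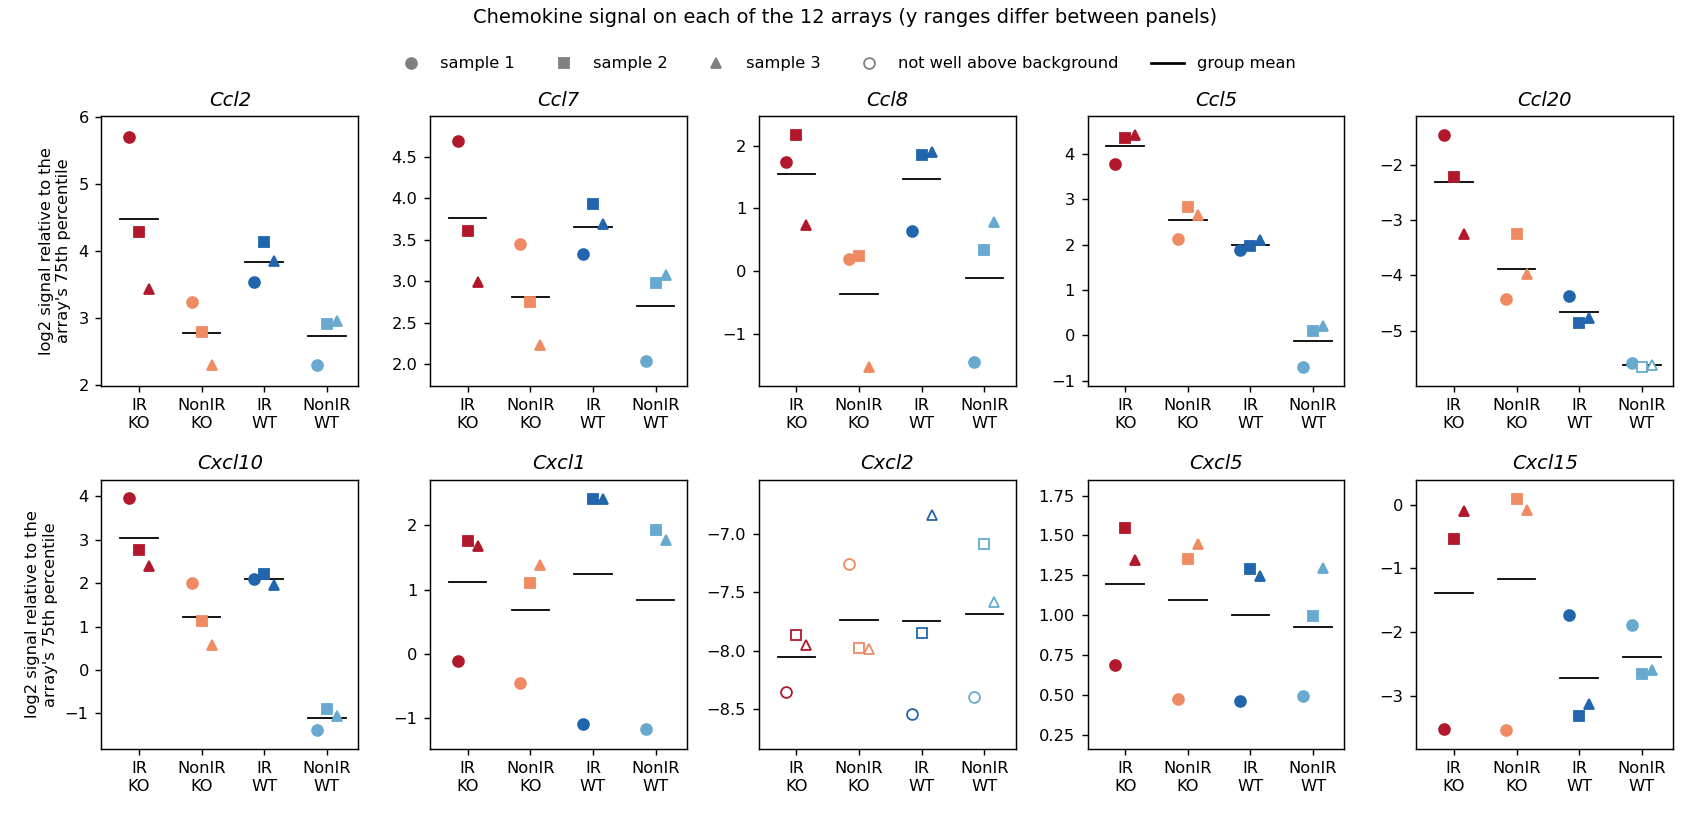
The log2 signal of each of the 10 chemokine genes relative to the array's 75th percentile (y axis) is plotted for the 3 samples of each group (x axis), with bars at group means and open symbols where the probe was not well above background. The 3 nonirradiated Atm-WT samples lie below all others for Cxcl10, Ccl5 and Ccl20, the number 1 samples lie below the others in every group for Cxcl1 and Cxcl5, and every Cxcl2 symbol is open.

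Cxcl10 encodes a ligand of the receptor Cxcr3 on activated T cells and is a well-known interferon-induced gene. Samples 1, 2 and 3 had Cxcl10 levels of 3.95, 2.76 and 2.39 in irradiated Atm-KO cells, against 1.99, 1.13 and 0.57 in nonirradiated Atm-KO cells. They had 2.08, 2.20 and 1.97 in irradiated Atm-WT cells, against -1.39, -0.89 and -1.05 in nonirradiated Atm-WT cells. Irradiated and nonirradiated samples did not overlap in either genotype. The share of all features whose groups did not overlap was not counted, here or for the genes below. In Atm-WT cells Cxcl10 rose 9.13-fold after irradiation, a log2 difference of 3.19 ± 0.42 (SE, n = 3 arrays per group, limma, adjusted p = 0.00337), with a 95% interval of 4.86-fold to 17.2-fold. The difference in Atm-KO cells was 1.80 ± 0.42 (adjusted p = 0.200), or 3.49-fold.

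Ccl5 encodes a chemokine that attracts T cells and monocytes. Its levels in samples 1, 2 and 3 were 3.78, 4.34 and 4.41 in irradiated Atm-KO cells, against 2.13, 2.83 and 2.66 in nonirradiated Atm-KO cells. The levels were 1.87, 1.97 and 2.10 in irradiated Atm-WT cells, against -0.70, 0.11 and 0.21 in nonirradiated Atm-WT cells. No 2 groups overlapped, and the order from highest to lowest was irradiated Atm-KO, nonirradiated Atm-KO, irradiated Atm-WT and nonirradiated Atm-WT. The middle groups lay closest, with the lowest nonirradiated Atm-KO sample at 2.13 and the highest irradiated Atm-WT sample at 2.10. Ccl5 rose 4.31-fold after irradiation in Atm-WT cells (log2 difference 2.11 ± 0.30 SE, n = 3 arrays per group, limma, adjusted p = 0.00661). The difference in Atm-KO cells was 1.64 ± 0.30 (adjusted p = 0.166), or 3.11-fold.

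Ccl2, Ccl7 and Ccl8 encode monocyte chemoattractant proteins: Ccl2 and Ccl7 act on Ccr2, while mouse Ccl8 acts on Ccr8. Ccl2 levels in samples 1, 2 and 3 were 5.71, 4.29 and 3.44 in irradiated Atm-KO cells, against 3.24, 2.80 and 2.30 in nonirradiated Atm-KO cells. They were 3.54, 4.14 and 3.85 in irradiated Atm-WT cells, against 2.31, 2.92 and 2.97 in nonirradiated Atm-WT cells. Irradiated samples were above nonirradiated ones without overlap in both genotypes, and the spread in Atm-KO cells came with the sample number, sample 1 being highest with and without irradiation.

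Ccl7 was read with 2 probes, and the brighter gave 4.68, 3.60 and 3.00 in irradiated Atm-KO samples, against 3.45, 2.75 and 2.23 in nonirradiated Atm-KO samples. It gave 3.33, 3.93 and 3.69 in irradiated Atm-WT samples, against 2.04, 2.98 and 3.07 in nonirradiated Atm-WT samples. The Atm-KO groups overlapped, while every irradiated sample was above the nonirradiated sample of its own number, and the dimmer probe kept that order in all 6 pairs. Ccl8 levels were 1.74, 2.16 and 0.74 in irradiated Atm-KO samples, against 0.19, 0.23 and -1.52 in nonirradiated Atm-KO samples. They were 0.64, 1.85 and 1.90 in irradiated Atm-WT samples, against -1.44, 0.34 and 0.78 in nonirradiated Atm-WT samples. The Ccl8 groups overlapped in Atm-WT cells, where nonirradiated sample 3 was above irradiated sample 1.

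Ccl20 encodes the ligand of Ccr6, which draws dendritic cells and some T and B cells. It was dim, with processed signals of 7.53 to 257 units, and only 2 arrays, both of nonirradiated Atm-WT cells, did not have it well above background. Its levels in samples 1, 2 and 3 were -1.46, -2.23 and -3.26 in irradiated Atm-KO cells, against -4.42, -3.24 and -3.97 in nonirradiated Atm-KO cells. They were -4.37, -4.86 and -4.76 in irradiated Atm-WT cells, against -5.59, -5.66 and -5.62 in nonirradiated Atm-WT cells. The Atm-KO groups overlapped slightly, irradiated sample 3 lying just below nonirradiated sample 2, and the Atm-WT groups did not overlap. Its log2 difference after irradiation in Atm-WT cells was 0.95 (limma, adjusted p = 0.725), and with normexp background correction, whose offset of 50 units is large beside its signal, the direction turned, to -0.67.

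In the comparison of irradiated with nonirradiated Atm-KO cells, 0 of 9 tested members passed an adjusted p of 0.05, where 0.00543% of all tested features did. At an unadjusted p of 0.05, 5 of 9 members passed, all higher after irradiation, against 7.93% of all tested features in either direction. They were Ccl2 (log2 difference 1.70 ± 0.48 SE), Ccl5, Ccl8 (1.91 ± 0.64), Ccl20 (1.56 ± 0.41) and Cxcl10, and Ccl7 differed by 0.95 ± 0.45. In Atm-WT cells 2 of 9 members, Ccl5 and Cxcl10, passed the adjusted threshold, where 0.445% of tested features did. The same 5 genes passed an unadjusted p of 0.05 in Atm-WT cells, against 6.46% of tested features. The median log2 difference of the 9 tested members was 1.56 in Atm-KO and 0.95 in Atm-WT cells, beside -0.05 and -0.02 over all tested features.

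Samples of the same number deviated together from their group means, so the same differences were also fitted with the pair as a block. In that fit 5 of 9 members rose after irradiation in Atm-KO cells, where 1.18% of tested features rose, and 4 of 9 rose in Atm-WT cells, where 1.64% did. In Atm-KO cells these were Cxcl10 (1.80 ± 0.18 SE, adjusted p = 0.00894), Ccl5 (1.64 ± 0.20, 0.0136), Ccl8 (1.91 ± 0.23, 0.0136), Ccl2 (1.70 ± 0.25, 0.0189) and Ccl7 (0.95 ± 0.20, 0.0496). In Atm-WT cells they were Cxcl10 (3.19 ± 0.18, adjusted p = 0.000118), Ccl5 (2.11 ± 0.20, 0.00115), Ccl8 (1.57 ± 0.23, 0.0101) and Ccl7 (0.95 ± 0.20, 0.0463). Ccl2 in Atm-WT cells (1.11 ± 0.25, adjusted p = 0.0676) and Ccl20 in Atm-KO cells (1.56 ± 0.37, 0.0712) did not pass. Without the 4 arrays numbered 1, an alternative chosen after the data were seen, the block left 0 of 9 members called in Atm-KO and 2 of 9, Ccl5 and Cxcl10, in Atm-WT cells, and Ccl20 in Atm-KO cells differed by 0.87 in place of 1.56.

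**Figure D2:**
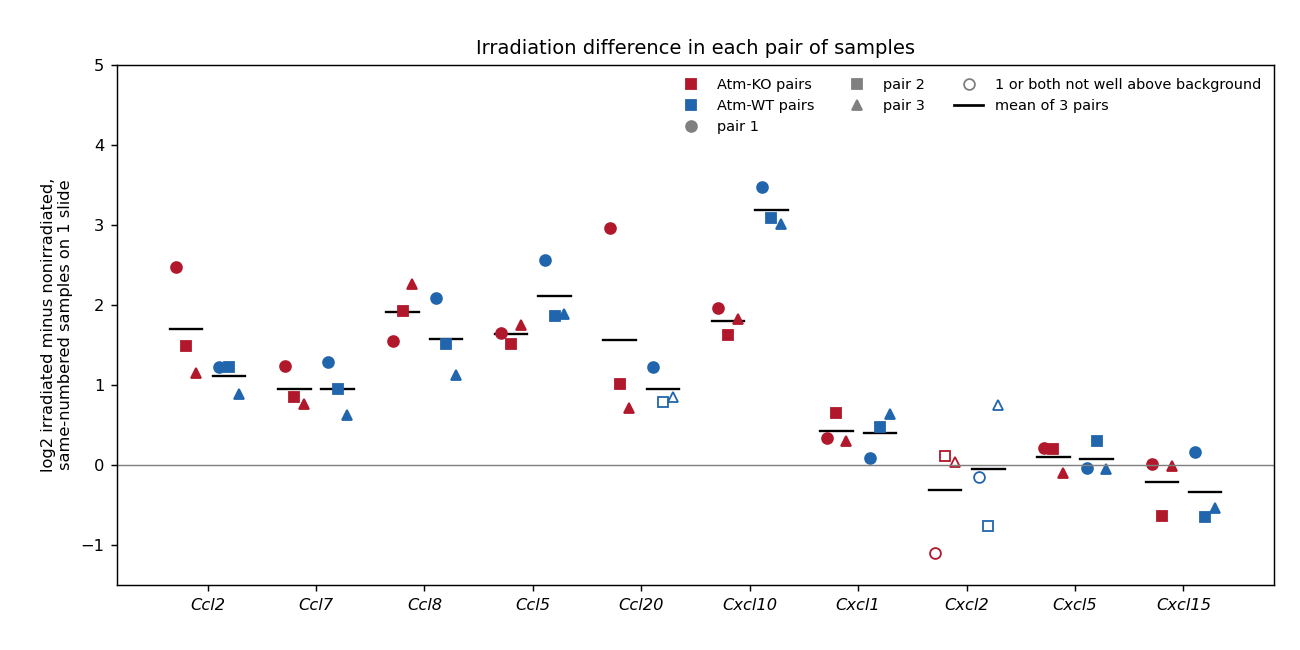
The log2 level of the irradiated minus the nonirradiated sample of the same number (y axis) is plotted for each chemokine gene (x axis), 3 Atm-KO pairs to the left and 3 Atm-WT pairs to the right, with bars at the mean of 3 pairs. All 6 pairs lie above 0 for Ccl2, Ccl7, Ccl8, Ccl5, Ccl20, Cxcl10 and Cxcl1, and the Atm-KO pairs of Cxcl10 (1.63 to 1.96) lie below its Atm-WT pairs (3.02 to 3.47).

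Whether irradiation acted differently in the 2 genotypes was tested as the difference of the differences, Atm-KO minus Atm-WT. No member of the 9 passed (limma, 0.00543% of tested features did), and 1 of 9, Cxcl10, had an unadjusted p under 0.05, against 0.901% of tested features. The Cxcl10 pair differences were 1.96, 1.63 and 1.82 in Atm-KO cells and 3.47, 3.09 and 3.02 in Atm-WT cells, without overlap. That is a log2 difference of -1.39 ± 0.59 (SE, adjusted p = 0.9999), with a 95% interval of -2.68 to -0.10. With the pair as a block it was -1.39 ± 0.26 (adjusted p = 0.268), and 0 of 9 members passed, where 0.0217% of tested features did. For Ccl5 the difference was -0.47 with an interval of -1.40 to 0.46, for Ccl2 it was 0.59 with an interval of -0.88 to 2.07, and for Ccl20 it was 0.61 with an interval of -0.66 to 1.88. These intervals do not show that the genotypes responded alike.

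Without irradiation, Atm-KO cells had higher Ccl5 and Cxcl10 than Atm-WT cells. Of the 9 tested members, 2 passed, where 0.857% of tested features did: Ccl5 was 6.35-fold higher (log2 difference 2.67 ± 0.30 SE, n = 3 arrays per group, limma, adjusted p = 0.00105) and Cxcl10 was 5.06-fold higher (2.34 ± 0.42, 0.0201). The Cxcl10 call was lost with normexp (1.91, adjusted p = 0.0674), quantile normalization (2.34, 0.0536) and no filter (2.34, 0.0546), and when any of 5 of the 12 arrays was left out (adjusted p 0.0519 to 0.0954). Ccl20 differed by 1.74 ± 0.41 (adjusted p = 0.0986), and by -0.30 with normexp, the opposite direction. This comparison shares the 3 nonirradiated Atm-WT samples with the irradiation comparison in Atm-WT cells, and Cxcl10 levels of nonirradiated Atm-KO cells (0.57 to 1.99) overlapped those of irradiated Atm-WT cells (1.97 to 2.20).

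After irradiation 2 of 9 members passed, where 0.206% of tested features did: Ccl5 was 4.59-fold higher in irradiated Atm-KO than in irradiated Atm-WT cells (2.20 ± 0.30, adjusted p = 0.0136), and Ccl20 was 5.11-fold higher (2.35 ± 0.41, 0.0475). Cxcl10 differed by 0.95 ± 0.42 (adjusted p = 0.892). Ccl2, Ccl7 and Ccl8 differed between genotypes by 0.64, 0.11 and 0.08 with irradiation and by 0.04, 0.11 and -0.26 without it, none of which passed. The median difference of the 9 members was 0.64 with irradiation and 0.16 without it, beside -0.01 and 0.04 over all tested features.

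Only the slide shared by Atm-KO sample 1 and Atm-WT sample 3 held both genotypes. On it Ccl5 was higher in the Atm-KO sample by 1.68 with irradiation and 1.92 without it, Cxcl10 by 1.99 and 3.04, and Ccl20 by 3.30 with irradiation, while without it Ccl20 was not well above background in Atm-WT sample 3. This sets a sample numbered 1 against one numbered 3. On the same slide 12 of 12 fibroblast markers were lower in the Atm-KO sample with irradiation (median -0.74) and 11 of 12 without it (-0.38). Among lists given below, 15 of 19 NF-kB pathway genes were also lower with irradiation (median -0.54) and 13 of 19 without it (-0.15). Of 11 interferon response genes 0 were lower in either treatment. The share over all features was not counted. The keratin genes Krt8 and Krt18 were higher in the Atm-KO sample of this slide, by 2.04 and 2.80 with irradiation and 1.77 and 2.92 without it. They belong to a list of 7 tested epithelial genes, of which 2 were lower in that sample with irradiation and 1 without it. Cdh1, on the same list, differed by -2.54 with irradiation and -0.19 without it. The part of these differences in the chemokine values was not tested. With slide as a term Cxcl10 without irradiation differed by 3.21 (adjusted p = 0.00685), Ccl5 by 2.04 (0.0585) without irradiation and 1.57 (0.292) with it, and Ccl20 with irradiation by 2.56 (0.344). The Ccl20 call with irradiation was lost when any of 9 of the 12 arrays was left out (adjusted p 0.058 to 0.256), and with normexp the difference was 1.07 (adjusted p = 0.9999).

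**Figure D3:**
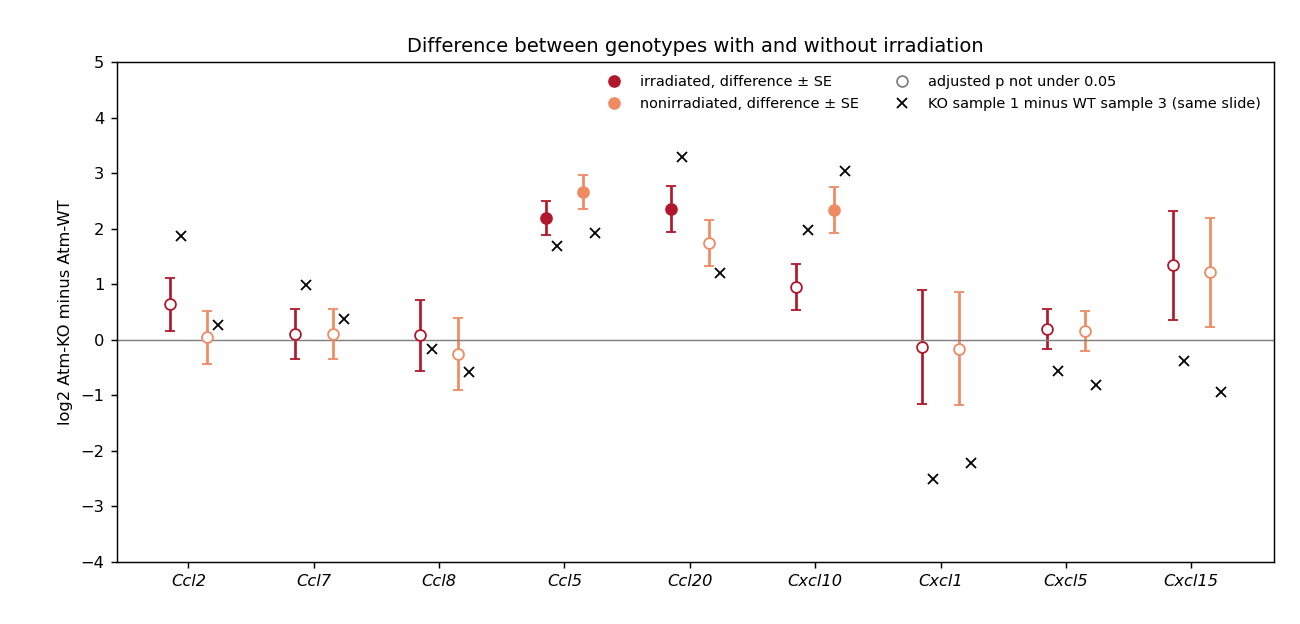
The log2 difference Atm-KO minus Atm-WT (y axis) is plotted for the 9 tested chemokine genes (x axis), with irradiation (dark) and without (light), with limma SE bars, filled where the adjusted p is under 0.05, and crosses for the single pair of samples on a shared slide. Filled symbols are Ccl5 in both treatments (2.20 and 2.67), Ccl20 with irradiation (2.35) and Cxcl10 without it (2.34), and the crosses for Cxcl1, Cxcl5 and Cxcl15 lie below 0. The Ccl20 cross without irradiation is set against a sample not well above background.

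Cxcl1, Cxcl2 and Cxcl5 encode ligands of Cxcr2, the main receptor through which neutrophils are recruited. Cxcl1 levels in samples 1, 2 and 3 were -0.11, 1.76 and 1.68 in irradiated Atm-KO cells, against -0.45, 1.10 and 1.39 in nonirradiated Atm-KO cells. They were -1.08, 2.40 and 2.40 in irradiated Atm-WT cells, against -1.17, 1.93 and 1.77 in nonirradiated Atm-WT cells. The 4 samples numbered 1 (-1.17 to -0.11) were below all 8 others (1.10 to 2.40), whatever the genotype, treatment or slide, and the irradiated sample was higher in 6 of 6 pairs by 0.09 to 0.65. For Cxcl1, and for Cxcl5 below, the share of all features that split by number in this way was not counted. The irradiation differences of 0.43 ± 1.02 in Atm-KO and 0.40 ± 1.02 in Atm-WT cells did not pass, and neither did those of the paired fit (adjusted p = 0.239 in Atm-KO and 0.360 in Atm-WT cells).

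Cxcl5 kept the same split by number, with 0.46 to 0.69 in the 4 samples numbered 1 and 0.99 to 1.55 in the other 8. Its irradiation differences were 0.10 ± 0.36 in Atm-KO and 0.07 ± 0.36 in Atm-WT cells, and 3 of 6 pairs were higher after irradiation. With the pair as a block the 95% intervals were -0.30 to 0.50 in Atm-KO and -0.33 to 0.47 in Atm-WT cells. Cxcl2 had processed signals of 1.81 to 3.78 units, not well above background in any sample, so no difference is given for it.

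Cxcl15 encodes lungkine, a neutrophil chemoattractant known from mouse lung. The brighter of its 2 probes gave -3.52, -0.54 and -0.09 in irradiated Atm-KO samples 1, 2 and 3, against -3.53, 0.09 and -0.08 in nonirradiated Atm-KO samples. It gave -1.73, -3.31 and -3.13 in irradiated Atm-WT samples, against -1.89, -2.66 and -2.60 in nonirradiated Atm-WT samples. Atm-KO samples 2 and 3 stood apart at -0.54 to 0.09, while Atm-KO sample 1 lay with or below the Atm-WT samples on both probes. On the brighter probe the irradiated sample was higher in 2 of 6 pairs, with differences of -0.65 to 0.17. On the other probe it was lower in every pair, with differences from -1.52 in Atm-KO pair 1 to -0.24 in Atm-WT pair 1. The genotype differences were 1.34 ± 0.99 with irradiation and 1.21 ± 0.99 without it, and did not pass. Without the 4 arrays numbered 1 they were 2.90 (limma, adjusted p = 0.00127) and 2.64 (0.00111) in a set of arrays with no slide that held both genotypes, so that slide and genotype cannot be told apart there.

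For 6 of the 10 members RefSeq promoter windows were at hand (GRCm38.p6). The 250 bases before the annotated start of 4 of them are printed 5′ to 3′ on the gene's strand because Cxcl10, Cxcl1 and Cxcl2 each hold 1 match to the NF-kB core below and differed in expression, Cxcl10 also holds 1 to the interferon-response core, and Ccl8, which was higher after irradiation in all 6 pairs, holds neither. Capitals mark matches to GGANNTTCC, a core of the NF-kB site, or to TTCNNTTTC, a core of the interferon-stimulated response element, on either strand. No capitals overlap each other.

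Cxcl10 promoter, chr5:92348890-92349139, minus strand: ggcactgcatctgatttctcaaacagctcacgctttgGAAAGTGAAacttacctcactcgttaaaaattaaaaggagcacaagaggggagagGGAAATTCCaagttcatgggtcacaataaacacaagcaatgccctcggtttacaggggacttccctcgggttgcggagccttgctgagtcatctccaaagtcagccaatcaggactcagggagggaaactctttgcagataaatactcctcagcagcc
Cxcl1 promoter, chr5:90890995-90891244, plus strand: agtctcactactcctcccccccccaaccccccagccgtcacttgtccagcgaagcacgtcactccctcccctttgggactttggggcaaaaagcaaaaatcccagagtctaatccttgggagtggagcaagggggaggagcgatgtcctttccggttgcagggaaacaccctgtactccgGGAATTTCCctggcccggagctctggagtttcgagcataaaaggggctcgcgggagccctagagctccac
Cxcl2 promoter, chr5:90903649-90903898, plus strand: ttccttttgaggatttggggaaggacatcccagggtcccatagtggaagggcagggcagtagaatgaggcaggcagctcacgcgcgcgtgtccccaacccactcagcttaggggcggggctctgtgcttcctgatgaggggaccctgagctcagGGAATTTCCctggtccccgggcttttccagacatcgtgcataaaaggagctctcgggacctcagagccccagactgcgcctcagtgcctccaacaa
Ccl8 promoter, chr11:82114935-82115184, plus strand: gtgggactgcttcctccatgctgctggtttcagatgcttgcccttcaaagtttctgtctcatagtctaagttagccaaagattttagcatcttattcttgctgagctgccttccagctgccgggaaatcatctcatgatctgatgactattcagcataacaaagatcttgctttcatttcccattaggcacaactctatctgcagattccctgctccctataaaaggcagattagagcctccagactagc

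The NF-kB core was present in 3 of 6 member windows, and in 4.26% of 32851 windows of 300 bases over all genes. It began 158 bases before the start of Cxcl10, 70 before that of Cxcl1 and 96 before that of Cxcl2. Cxcl1 and Cxcl2 hold the same letters, GGAATTTCC, although Cxcl1 was well above background on all 12 arrays and Cxcl2 on 0. The interferon-response core was present in 1 of 6, Cxcl10, 213 bases before its start, and in 8.56% of all windows, with both cores in 0.390%. A match says only that these letters are there.

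Genes of the pathways that commonly switch on chemokines were counted from lists. Of 19 tested NF-kB pathway genes, 0 passed in any of the 5 comparisons, and their median difference after irradiation was 0.03 in Atm-KO and 0.07 in Atm-WT cells. At an unadjusted p of 0.05, 1 of the 19 was lower in nonirradiated Atm-KO than in nonirradiated Atm-WT cells, and 0 passed in the other 4 comparisons. Of 11 interferon response genes, 9 rose after irradiation in Atm-WT cells, with a list median of 3.55, and 0 passed in Atm-KO cells, where the median was 1.55 and 10 of 11 had an unadjusted p under 0.05. In the paired fit 3 of the 11 passed in Atm-KO cells: Zbp1, a sensor of nucleic acids, by 2.10 (adjusted p = 0.00894), Oas2 by 1.56 (0.0258) and Rsad2 by 2.40 (0.0281). The difference of the irradiation differences, Atm-KO minus Atm-WT, passed for 1 of the 11, Oas1a, which encodes an antiviral oligoadenylate synthetase. With the block this smaller rise in Atm-KO cells passed for 3, Oas1a (-2.99, adjusted p = 0.0167), Isg15 (-2.40, 0.0287) and Usp18 (-2.43, 0.0287). These were named after their values were seen. Without irradiation 9 of the 11 were higher in the Atm-KO cells, with a median of 2.58, and 11 of 11 were higher in the Atm-KO sample of the slide with both genotypes. Of 20 interferon signalling genes, 3 rose after irradiation in Atm-WT cells, among them Irf7 by 3.77 and Stat2 by 1.98 (limma, adjusted p = 0.000607 and 0.00698), transcription factors of the interferon response. With the block 5 of the 20 rose in Atm-WT cells and 1, Irf7, in Atm-KO cells (adjusted p = 0.0138). These lists stand beside Cxcl10 and Ccl5 as measured, and their part in the chemokine values was not tested.

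**Figure D4:**
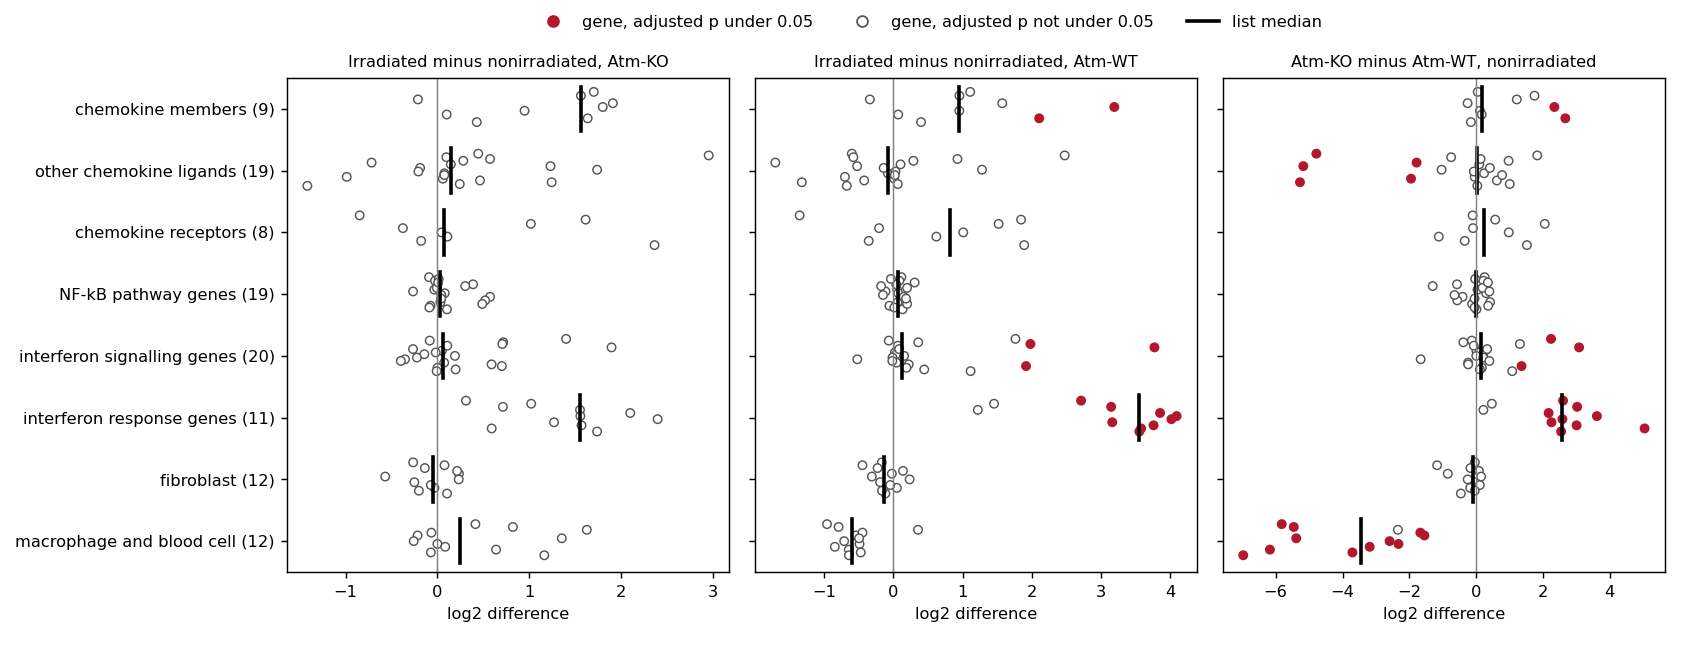
Each point is the log2 difference (x axis) of 1 tested gene, in rows for the chemokine members and 7 other lists with the number of tested genes, for irradiation in Atm-KO cells, irradiation in Atm-WT cells and Atm-KO minus Atm-WT without irradiation, with filled points where the adjusted p is under 0.05 and bars at list medians. Interferon response genes have medians of 1.55, 3.55 and 2.58, NF-kB pathway genes lie around 0, and 11 of 12 macrophage and blood cell genes are filled and below 0 in the right panel. Only 5 of those 12 were well above background on all arrays.

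Of 28 other chemokine ligands, 26 were on the array and 19 were tested, and 0 passed after irradiation in either genotype, with medians of 0.15 in Atm-KO and -0.08 in Atm-WT cells. In the paired fit 2 rose in Atm-KO cells, and 1 rose and 1 fell in Atm-WT cells. Cxcl9, like Cxcl10 a ligand of Cxcr3, rose by 2.96 in Atm-KO cells (adjusted p = 0.00502, against 0.176 without the block) and by 2.48 in Atm-WT cells (0.00234, against 0.169), and it was named after its values were seen. It was well above background on 1 of 3 nonirradiated Atm-WT arrays and on all other arrays. The other that rose in Atm-KO cells was Ccl4 (adjusted p = 0.0234), well above background on 1 of 3 irradiated and 0 of 3 nonirradiated Atm-KO arrays, and the one that fell in Atm-WT cells was Pf4, by 1.70 (0.0160).

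Between nonirradiated genotypes, 5 of the 19 other ligands were lower in the Atm-KO cells and 0 were higher, where 0.857% of tested features differed in either direction. Of the 13 ligands well above background on all arrays, 2 were lower. Ccl3, Ccl4 and Ccl12 were tested only because the Atm-WT groups were bright. For them the filter favoured a lower value in Atm-KO cells, with and without irradiation. Ccl3 and Ccl4, macrophage inflammatory proteins, and Ccl12, a further ligand of Ccr2, were not well above background on any nonirradiated Atm-KO array. They were at least 8.02-fold, 18.0-fold and 12.4-fold lower there than in nonirradiated Atm-WT cells (limma, adjusted p = 0.00120, 0.000373 and 0.0164), each bound being the mean of the bright group over the lowest signal well above background on the dim arrays. Ccl6 and Pf4, the other 2 of the 5, were lower by log2 differences of -1.95 and -1.78 and were named after their values were seen. After irradiation Ccl3 and Ccl4 were lower in Atm-KO cells (limma, adjusted p = 0.0185 and 0.0139), and no size is given because each was well above background on 1 of 3 irradiated Atm-KO arrays, that of sample 1. On the slide that held both genotypes, that sample minus irradiated Atm-WT sample 3 was -1.70 for Ccl3 and -2.26 for Ccl4.

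Markers of macrophages and blood cells moved with these ligands. Of 14 on the array 12 were tested, and 5 of these (Csf1r, C1qb, Lyz2, Fcer1g and Cd14) were well above background on all 12 arrays. Without irradiation 5 of the 5 were lower in Atm-KO cells, by log2 differences of -3.19 to -1.55. With irradiation 1 of the 5, Lyz2, was lower (-2.14, limma, adjusted p = 0.0116), and with sample number as a block 4 were, where 0.456% of tested features were lower. The other 7 were well above background on all Atm-WT arrays, and each was not so on at least 1 Atm-KO array. All of these except Ctss were tested only because the Atm-WT groups were bright, so for them the filter favoured a lower value in Atm-KO cells. Of the 7, 6 passed as lower without irradiation, and 4 with it or 6 with the block. Adgre1 and Laptm5, which no nonirradiated Atm-KO array had well above background, were at least 13.9-fold and 5.42-fold lower there than in nonirradiated Atm-WT cells (adjusted p = 0.00253 and 0.00348). On the slide with both genotypes 12 of 12 were lower in the Atm-KO sample without irradiation and 11 of 12 with it. The summed signal of the 14, in multiples of the 75th percentile, was 0.807 to 1.17 in irradiated Atm-KO, 0.629 to 1.19 in nonirradiated Atm-KO, 3.87 to 5.91 in irradiated Atm-WT and 5.22 to 10.1 in nonirradiated Atm-WT cells. Ptprc, Itgam and Laptm5 were not well above background on any Atm-KO array. Laptm5 was so on 3 of 3 arrays of both Atm-WT groups, but Ptprc and Itgam on only 1 of 3 arrays of each, and these last were not tested. The part of the markers in the lower Ccl3, Ccl4 and Ccl12 was not tested, and fewer cells of a type and less RNA per cell cannot be told apart in bulk samples. Ccl5 and Cxcl10 without irradiation, and Ccl5 and Ccl20 with it, passed as higher in Atm-KO cells, where these markers were lower. Irradiated Atm-WT cells had a higher summed marker signal than nonirradiated Atm-KO cells. Their mean Cxcl10 level was higher (2.08 against 1.23), although the samples overlapped. Their mean levels of Ccl5 (1.98 against 2.54) and Ccl20 (-4.67 against -3.88) were lower. The part of the markers in these chemokine levels was not tested. Irradiation changed 0 of the 12 markers in either genotype without the block (0 of 12 in Atm-KO and 1 of 12 in Atm-WT cells had an unadjusted p under 0.05). In the paired fit 3 of the 12 rose after irradiation in Atm-KO cells, as 5 of 9 chemokine members did: Ctss, a lysosomal protease (adjusted p = 0.0141), Cd53 (0.0189) and C1qc, a complement subunit (0.0291). Without irradiation 1 of 3 Atm-KO arrays had each of them well above background, and with irradiation 3, 2 and 1 of 3 did. Of the 5 markers measured on all arrays 0 passed for irradiation in either genotype or fit. Their differences were -0.26 to 0.09 in Atm-KO cells and -0.84 to -0.45 in Atm-WT cells. In Atm-WT cells 11 of the 12 were lower after irradiation, with a median of -0.59. There 5 of the 12 were lower at an unadjusted p under 0.05 in the paired fit, beside 1355 of 18430 tested features. The part of Ctss, Cd53 and C1qc in the members' rise was not tested.

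Of 23 chemokine receptors on the array 8 were tested, and 0 passed in any of the 5 comparisons. At an unadjusted p of 0.05, 2 were higher after irradiation in Atm-KO cells, and 3 were higher and 1 lower in Atm-WT cells. The receptors that the members act on were mostly dim: Ccr1, Ccr2, Ccr8 and Cxcr3 were not well above background on any of the 12 arrays, and Ccr3, Ccr6 and Cxcr2 were not so on all 3 arrays of any group. In the paired fit 2 receptors rose after irradiation in Atm-KO cells and 3 in Atm-WT cells. Those in both were Ccrl2, an atypical receptor that binds chemerin, with 1.62 in Atm-KO and 1.84 in Atm-WT cells (adjusted p = 0.0154 and 0.00291), and Cxcr6, the receptor of Cxcl16 (0.00502 and 0.00240), both named after their values were seen. Cxcr6 was well above background on every irradiated array but on 2 of 3 nonirradiated Atm-KO and 1 of 3 nonirradiated Atm-WT arrays, so no size is given.

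The genes whose levels ran most like each member were found from the root mean square difference of log2 levels centred on each gene, over the 12 arrays and 12806 named tested genes. This is a description, since all genes share the same arrays and groups. Nearest to Cxcl10 were Cmpk2 (0.381), Oasl1 (0.474) and Ifit3b (0.519), where Cxcl10 itself varied with an SD of 1.60. Nearest to Ccl5 were Sp110 (0.436), H2-Q8 (0.483) and Batf2 (0.514). Ccl7 was the nearest gene to Ccl2 (0.336), while Ccl7 itself was nearest to Speer3 (0.274). Ccl20 ran most like Tslp (0.393), which encodes an epithelial cytokine, and Ccl8 most like Pla1a (0.432). Nearest to Cxcl1 were Rasd1 (0.248) and Dusp1 (0.364), nearest to Cxcl5 was Stom (0.137) and nearest to Cxcl15 was Galnt13 (0.439).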

How the data were processed

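The authors deposited, per the file headers, scanner files of spot intensity from Agilent Feature Extraction 10.7.1.1, with background already subtracted in the processed signal. The submitters' processing notes name version 11.0, and the difference was not resolved. A matrix of log2 values, also deposited by the authors, served as an alternative, whose values follow the processed signal after scaling to the array's 75th percentile and removal of the probe's median. No step that made it is stated in the sources used here.

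Control spots were left out. The 75th percentile of an array's log2 processed signal, over all other spots, was subtracted from all its values. The spots of a probe were then averaged without those flagged as outliers, unless all spots of that probe were flagged. Probes were named through unversioned accessions in the RefSeq gene table (25097 of 41174), and the probe with the highest mean stood for a gene. The number of arrays limits the precision, since intensities give no depth. A probe was well above background where at least 0.5 of its spots carried the deposited flag.

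A model with 1 mean per group was fitted over the 12 arrays and 18430 tested features with limma 3.58.1 in R 4.3.3, with eBayes and Benjamini-Hochberg adjustment at 0.05 (tested on simulated data). The 5 comparisons were made, as named in the text. The deviations of same-numbered samples from the mean of their group correlated at 0.510, 0.269 and 0.503 for irradiation in Atm-KO cells and at 0.852, 0.732 and 0.481 in Atm-WT cells, and at 0.628, 0.616 and 0.218 between irradiated genotypes. These numbers were therefore taken to pair the samples, a pairing that comes from the data and not from the labels. They were -5.17e-05, 0.179 and -0.217 between nonirradiated genotypes, which gave no ground for pairing those. For both genotype comparisons the block was a term for sample number over all 12 arrays, so it covered the nonirradiated samples as well.

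Alternatives were normexp with an offset of 50 on median spot and local background intensity (no mean spot intensity was used here), quantile normalization, no filter, the replicate block, slide as a term, the deposited matrix, the mean over probes, each array left out, and, chosen after the data were seen, no arrays numbered 1. The rule for named genes took the 10 members, then up to 3 called genes of each other list with the smallest adjusted p per comparison, some left out for length. A few results are not reported here. The members and lists were chosen with earlier results of these data known. Sequences come from RefSeq, GRCm38.p6, and the probes' build is mm9, so no probe coordinates are given.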

Additional observations from a re-analysis of the deposited data

How the results depend on the processing

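Of 945 values of members under all alternatives, 904 stayed on their side of the threshold, 26 lost a call and 15 gained one. The sign changed in 90, of which 0 passed the threshold on either side. The number of arrays and slides limits every value, and Ccl20 and Cxcl2 are limited by signal over background. The cause of the changes below was not tested.

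In the main fit the features called were 1 (irradiation in Atm-KO), 82 (irradiation in Atm-WT), 1 (difference of these), 38 (irradiated genotypes) and 158 (nonirradiated genotypes), and members called were 0, 2, 0, 2 and 2. In the same order, features called were 0, 41, 0, 13 and 63 with normexp, and 0, 57, 0, 20 and 103 with no filter. With quantile normalization they were 0, 92, 2, 42 and 163. With slide as a term they were 1, 139, 0, 3 and 34. Normexp, quantile normalization and no filter each left 1 member called between irradiated and 1 between nonirradiated genotypes, and slide as a term left 0 and 1. The members lost were Ccl20 between irradiated genotypes (1.07, 2.52 and 2.35 with adjusted p = 0.9999, 0.0795 and 0.130 for normexp, quantile and no filter) and Cxcl10 between nonirradiated ones (1.91, 2.34 and 2.34 with adjusted p = 0.0674, 0.0536 and 0.0546).

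With the replicate block, features called were 377, 417, 4, 140 and 315, and members called were 5, 4, 0, 2 and 2. The block changed no member's call between genotypes. Nonirradiated genotypes share only sample numbers, and there Ccl5, Cxcl10 and Ccl20 had adjusted p of 0.000146, 0.0118 and 0.0736 with the block. In Atm-KO cells irradiated sample 2 correlated as well with nonirradiated sample 3 (0.284) as with its own number (0.269).

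Without the 4 arrays numbered 1, features called were 0, 167, 0, 1044 and 1580, and members called were 0, 2, 0, 3 and 4. With the block as well, features called were 0, 109, 0, 1240 and 1909, with the same member counts. The 4 between nonirradiated genotypes were Ccl5, Cxcl10, Ccl20 (2.03, adjusted p = 0.0218 without the block) and Cxcl15.

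With each array left out in turn, features called ran from 0 to 2 for irradiation in Atm-KO, 49 to 101 in Atm-WT, 0 to 1 for their difference, 3 to 104 between irradiated and 57 to 225 between nonirradiated genotypes. Members called ran from 0 to 0, 2 to 2, 0 to 0, 0 to 2 and 1 to 3. Ccl5 between irradiated genotypes was lost without irradiated Atm-KO sample 2 (adjusted p = 0.0969), irradiated Atm-KO sample 3 (0.0883) or irradiated Atm-WT sample 2 (0.0774). Cxcl10 between nonirradiated genotypes was lost without nonirradiated Atm-KO sample 1 (0.0519) or 2 (0.0954), or nonirradiated Atm-WT sample 1 (0.0703), 2 (0.0643) or 3 (0.0773). Ccl20 between irradiated genotypes kept its call only without nonirradiated Atm-KO sample 1 or 2 or irradiated Atm-KO sample 3. Ccl20 between nonirradiated genotypes gained a call without irradiated Atm-KO sample 1 (0.0345) or 3 (0.0417).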

Other observations

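Ccl2 was the only member printed many times on the array, with 10 spots per array, and the SD of log2 signal over these spots was 0.033 to 0.104 on each array. That is smaller than the spread of Ccl2 between samples of any group, where the SD was 1.15 in irradiated Atm-KO, 0.47 in nonirradiated Atm-KO, 0.30 in irradiated Atm-WT and 0.37 in nonirradiated Atm-WT cells (n = 3 each).

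Among the other chemokine ligands, RefSeq promoter windows were at hand for 21 of 28. The NF-kB core was present in 3 of these 21 windows and the interferon-response core in 5 of 21, beside 3 of 6 and 1 of 6 among the members.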
